A study of Mus musculus with 21 samples.

Results

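The genes Emilin2, Gpr141, Ltb4r1, Basp1, Nupr1 and Lrrc32 of cytokine-cultured mouse CD8 T cells were followed across 21 single-cell RNA libraries. They are 6 of the 17516 gene symbols in the count tables, and all 6 were found. They were chosen by values measured in these libraries, so the contrasts that chose them are given as descriptions with no test. Emilin2, Gpr141 and Ltb4r1 were taken from the lowest median log2 differences of IL-15 against IL-2, where they ranked 2, 4 and 5 of 97 genes lower with IL-15. Nupr1 and Basp1 were taken from the highest differences of 50 against 5 IU/mL IL-2, where they ranked 3 and 5 of 252. Lrrc32 was taken from the highest differences of IL-2v against IL-15, where it ranked 4 of 144 and Emilin2 ranked 2. The choice was not a plain cut by rank, since other genes held the ranks between and above them, among them Tnfrsf9 at rank 4 of the dose contrast (4.65). Next in rank after the last member were Tnfrsf9 at rank 6 in the contrast of IL-15 with IL-2 (-3.33, next to -3.37 for Ltb4r1), Scd1 at rank 6 in the dose contrast (4.03, next to 4.38 for Basp1) and Hist1h2ap at rank 5 in the contrast of IL-2v with IL-15 (2.69, next to 2.89 for Lrrc32).

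The cells were OT1 CD8 T cells, which carry a transgenic T cell receptor for a peptide of ovalbumin. Naive cells were sampled on day 0. All other cells had been activated in culture with beads bearing antibodies to CD3 and CD28. Growth followed in 1 of 3 cytokines (IL-2v, IL-2 or IL-15) at either 5 or 50 IU/mL, and libraries were made on days 3, 5 and 10. Bead-activated cells without added cytokine were sampled on days 3 and 5. The labels call IL-2v a mutant IL-2bg and do not give its substitutions. Each condition had 1 library, so no difference between conditions has a replicate check and no p-value is given. Intervals are 95% intervals that cover counting error only. The treatment labels of 6 libraries name interleukin-3 or interleukin-16 where the titles and the design give 50 IU/mL IL-2 or IL-15, and every value below for those libraries rests on the titles. In addition, the extraction protocol speaks of sorted tumour-infiltrating cells while the growth protocol describes culture.

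IL-2 signals through a receptor of an alpha chain (Il2ra), a beta chain and a common gamma chain, which activate the kinases JAK1 and JAK3 and the transcription factor STAT5. IL-15 uses the same beta and gamma chains with a different alpha chain. In CD8 T cells, strong IL-2 signalling is known to favour growth and effector differentiation. The 6 genes encode proteins of different kinds. Emilin2 encodes a secreted glycoprotein of the extracellular matrix. Lrrc32 encodes GARP, which holds latent TGF-beta on the cell surface and is best known from activated regulatory T cells and platelets. Ltb4r1 encodes BLT1, the high-affinity receptor for leukotriene B4, a lipid that attracts leukocytes, effector CD8 T cells among them. Gpr141 encodes an orphan receptor of the class A G protein-coupled family. Basp1 encodes an acylated protein of the inner face of the plasma membrane, related in behaviour to GAP43 and MARCKS. Nupr1 encodes a small nuclear protein induced by cell stress, and it is a known target of ATF4, the transcription factor of the integrated stress response.

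The libraries held 3250 to 7105 cells each, 106456 in all, with summed counts of 10589950 to 32648496 unique molecular identifiers (UMIs, each marking 1 captured RNA molecule). Median depth ran from 3016 UMIs per cell (50 IU/mL IL-2, day 5) to 5065 (50 IU/mL IL-2, day 10). Libraries shared 1 to 19 cell barcodes with each other, and the 19 were 0.327% of the smaller library of that pair. Of the markers of the CD8 T cell label, Cd3d was detected in 93.0% to 99.5% of cells, Cd8b1 in 54.5% to 92.0% and Cd8a in 37.0% to 74.2%. The defining genes of CD4 and regulatory T cells were rare, with Cd4 in at most 1.49% and Foxp3 in at most 0.147% of cells. Other genes of those lists were not: Zbtb7b, a CD4 lineage factor, reached 13.5% and Ikzf2, a factor of regulatory and activated T cells, 42.4%. The library of 50 IU/mL IL-2 on day 10 stood apart in the share of cells with markers of other lineages, 12.9%. A cell was counted there if it had UMIs of at least 2 genes of the same list, myeloid, B, megakaryocyte or erythroid. Cells with Cd4 and neither Cd8a nor Cd8b1 were counted too. The myeloid list holds broadly detected genes, with Cst3 in 41.3% of cells of that library. The share therefore does not by itself count cells of other types. The libraries of 50 IU/mL IL-2 on days 3 and 5 stood apart in Hspa1a and Hspa1b, inducible heat shock genes. Values of the genes with and without those cells are given below, with the stress genes and with the markers of other cells.

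All 6 genes had their highest level in the same library, 50 IU/mL IL-2 on day 10. That library took part in choosing all of them but Lrrc32, so the shared peak is in part fixed by the choice. The share of all genes that peak there is not given. For Basp1 the interval overlapped that of 50 IU/mL IL-2 on day 5, and for Lrrc32 that of 50 IU/mL IL-2v on day 10. Levels are given as CPM, a gene's share of all UMIs in the summed cells, put on the same scale for every library. Together the 6 genes made up 1224 CPM there, against 424 CPM with 50 IU/mL IL-2v on day 10, 138 CPM with 5 IU/mL IL-2 on day 10 and 14.8 CPM in naive cells. Of that naive total, Basp1 alone gave 13.2 CPM. In bulk sums of this kind, fewer expressing cells and less RNA per cell cannot be told apart. The shares of cells below do not separate them either, because the chance of catching a UMI in a cell rises with the gene's level.

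**Figure D1:**
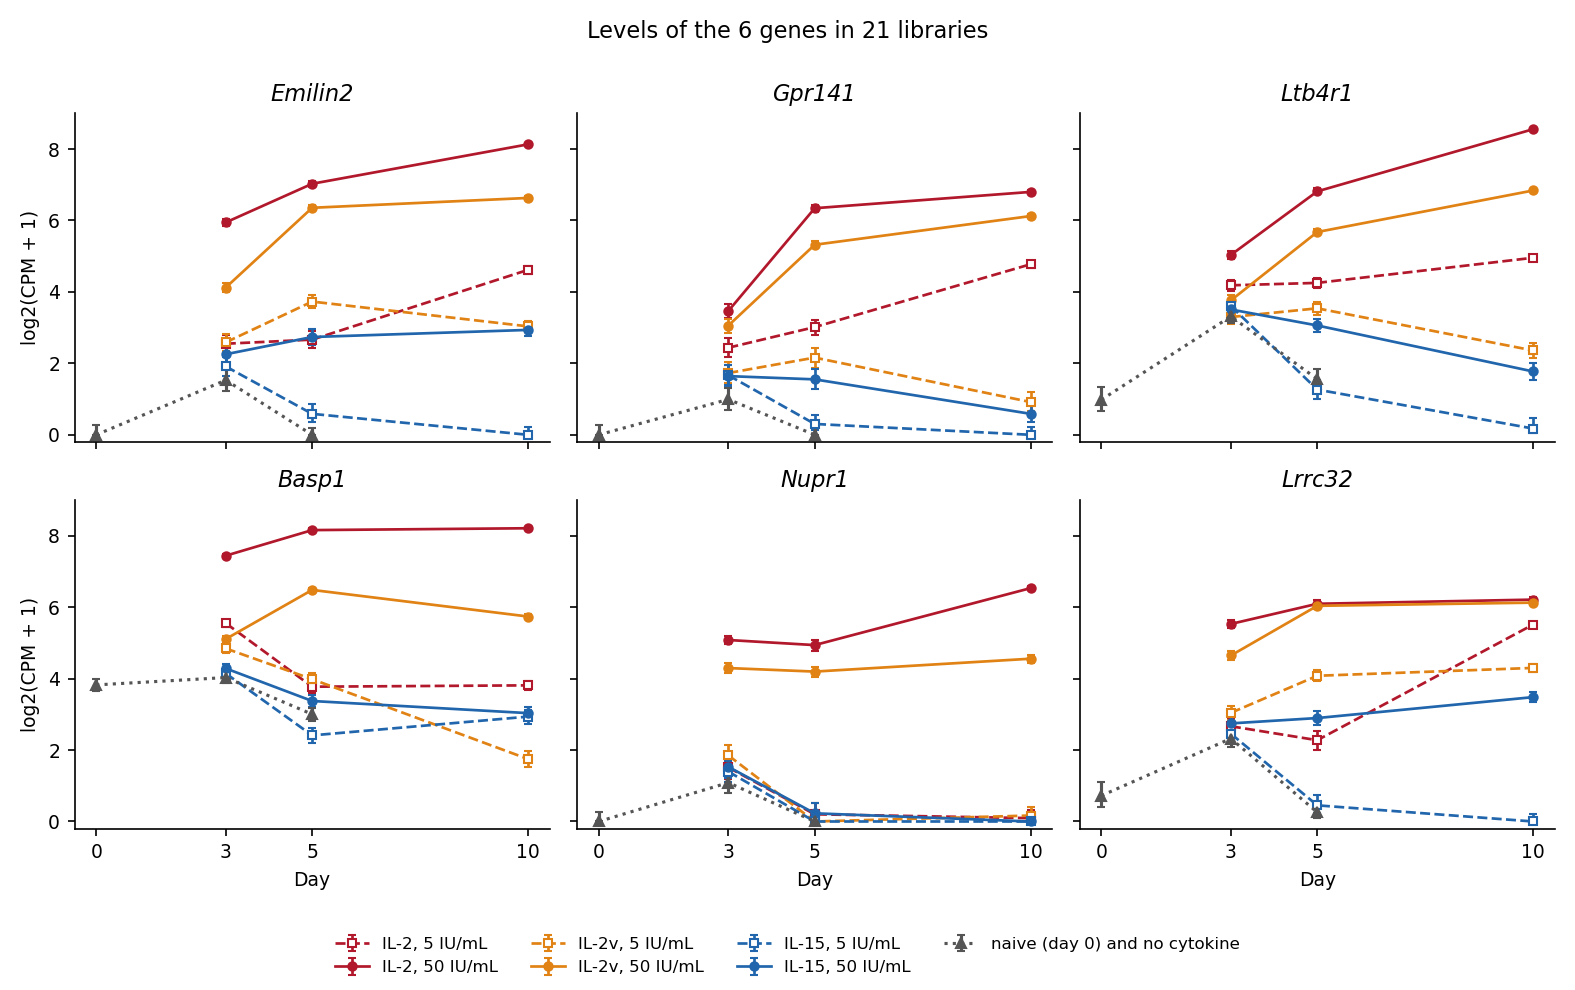
Level of each gene as log2(CPM + 1) against day, 1 panel per gene, with 1 line per cytokine and dose (solid 50 IU/mL, dashed 5 IU/mL, dotted naive and no cytokine) and exact Poisson 95% intervals as bars. The 50 IU/mL IL-2 line ends highest in every panel, and Lrrc32 is the panel in which the 50 IU/mL IL-2 and IL-2v lines meet, at 73.1 and 68.8 CPM on day 10.

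Emilin2, the matrix glycoprotein, lies on mouse chromosome 17 (GRCm38, chr17:71252172-71311978, minus strand). Its level with 50 IU/mL IL-2 was 60.6 CPM on day 3, 129 on day 5 and 279 on day 10. The matching IL-2v libraries held 16.4, 80.9 and 98.1 CPM. Both series of libraries climbed at each step, and the IL-2 library was above the IL-2v library on every day. At the lower dose, the values were 4.86, 5.34 and 23.5 CPM with IL-2 and 5.02, 12.3 and 7.20 CPM with IL-2v. The order of the low-dose pair thus turned over between day 5 and day 10. Across the 6 IL-15 libraries Emilin2 ranged from 0 to 6.65 CPM. Naive cells and the day 5 culture without cytokine had no UMI of it. Of the 20 neighbouring pairs in the order of the 21 libraries, 10 had overlapping intervals.

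The RefSeq window of 250 bases before the downstream start of Emilin2 (GRCm38.p6, chr17:71311012-71311261, minus strand) is shown because its capitals mark a match to TTCNNNGAA, the STAT element, 85 to 77 bases before the start. By the GENCODE annotation the window lies inside the Emilin2 gene, which starts further upstream. The window before the upstream RefSeq start also lies inside it.
Emilin2 downstream start: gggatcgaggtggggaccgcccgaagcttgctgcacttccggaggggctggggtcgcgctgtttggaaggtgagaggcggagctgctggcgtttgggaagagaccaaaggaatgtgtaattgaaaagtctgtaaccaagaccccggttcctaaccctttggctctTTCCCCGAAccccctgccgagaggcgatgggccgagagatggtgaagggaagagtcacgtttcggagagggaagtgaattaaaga

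Lrrc32, encoding the TGF-beta docking protein GARP, lies at chr7:98489283-98502181 on the plus strand. Its level with 50 IU/mL IL-2 was 45.2, 67.3 and 73.1 CPM on days 3, 5 and 10. IL-2v at that dose gave 24.05, 64.7 and 68.8 CPM. On days 5 and 10 these libraries lay together: the IL-2v level was 0.96 times the IL-2 level (0.88 to 1.05) on day 5 and 0.94 times (0.88 to 1.004) on day 10. With 5 IU/mL IL-2 it was at 5.35 CPM on day 3, 3.84 on day 5 and 44.7 on day 10. On day 10 the 50 IU/mL level was 1.64 times this, the smallest such ratio of the 6 genes on that day. The day 10 level at 5 IU/mL was 11.6 times the day 5 level (9.24 to 14.8). IL-2v at 5 IU/mL gave 7.24, 15.9 and 18.7 CPM, and with 50 IU/mL IL-15 it was 5.71, 6.44 and 10.2 CPM. Lrrc32 was at 0 with 5 IU/mL IL-15 on day 10, where the same cytokine at the higher dose gave at least 79.0-fold more. Foxp3, which defines regulatory T cells, stayed at or below 0.379 CPM in all 21 libraries. Of the same list, Ikzf2 reached 184 CPM, in a range from 4.99 CPM, and Ikzf4 ranged from 4.09 to 17.8 CPM.

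Ltb4r1, the leukotriene B4 receptor gene at chr14:55765962-55768494 on the plus strand, reached the highest level of any member. It stood at 31.8 CPM on day 3, 112 on day 5 and 375 on day 10 with 50 IU/mL IL-2. The 50 IU/mL IL-2v libraries held 12.6, 50.1 and 114 CPM. Each step was larger than its counting error in both series. Low-dose IL-2 gave 17.2, 18.1 and 30.0 CPM and low-dose IL-2v 8.83, 10.6 and 4.13 CPM. Ltb4r1 had UMIs in every library, and activation without cytokine gave 8.94 CPM on day 3 and 1.95 on day 5 against 0.975 in naive cells. The IL-15 libraries started near the culture without cytokine, at 11.2 CPM (5 IU/mL) and 10.4 CPM (50 IU/mL) on day 3. They ended at 0.129 CPM (3 UMIs) and 2.42 CPM on day 10. The day 3 libraries of IL-15 at the 2 doses did not differ beyond counting error (ratio 0.93, 0.77 to 1.12).

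Gpr141, the orphan receptor gene at chr13:19749682-19824257 on the minus strand, had the largest step of the 6 between days 3 and 5 with 50 IU/mL IL-2. Its level was 10.1 CPM on day 3, 80.2 on day 5 and 110 on day 10, a 7.97-fold step from day 3 to day 5. IL-2v at 50 IU/mL gave 7.33, 38.9 and 68.7 CPM. At 5 IU/mL the IL-2 series went 4.42, 7.08 and 26.4 CPM while the IL-2v series went 2.32, 3.47 and 0.888 CPM. On day 10 at the low dose, IL-2 stood 29.7-fold above IL-2v (20.5 to 44.6), the widest gap between these cytokines in any pair of any member. IL-15 at 50 IU/mL gave 2.12, 1.93 and 0.502 CPM. Naive cells, the day 5 culture without cytokine and the day 10 culture with 5 IU/mL IL-15 had no UMI of Gpr141.

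Basp1, the membrane-associated protein gene at chr15:25363277-25413764 on the minus strand, had the highest level of the 6 in naive cells, at 13.2 CPM (11.6 to 14.9). Activation without cytokine gave 15.3 CPM on day 3 and 7.01 on day 5. It was already at 173 CPM on day 3 with 50 IU/mL IL-2 and stood at 284 on day 5 and 295 on day 10. The last step lay within counting error (ratio 1.04, 0.99 to 1.08). The 50 IU/mL IL-2v libraries held 33.5, 88.4 and 52.4 CPM, so the IL-2v series peaked on day 5. Low-dose IL-2 gave 45.8, 12.7 and 13.03 CPM, which on days 5 and 10 overlapped the naive interval. Low-dose IL-2v gave 27.7, 14.8 and 2.36 CPM. With IL-15 it ranged from 4.32 to 18.5 CPM over the 6 libraries.

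The RefSeq windows of 250 bases before the starts of Basp1 (GRCm38.p6, chr15:25413765-25414014, minus strand) and Gpr141 (chr13:19824258-19824507, minus strand) are shown together because these members share their highest library and have promoters of opposite composition. Capitals mark CG dinucleotides.
Basp1: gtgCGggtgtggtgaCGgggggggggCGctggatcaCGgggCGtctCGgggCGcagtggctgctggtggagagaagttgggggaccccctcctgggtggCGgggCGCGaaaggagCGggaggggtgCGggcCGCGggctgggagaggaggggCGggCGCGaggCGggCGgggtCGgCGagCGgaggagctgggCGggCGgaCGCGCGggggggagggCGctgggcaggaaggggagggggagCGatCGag
Gpr141: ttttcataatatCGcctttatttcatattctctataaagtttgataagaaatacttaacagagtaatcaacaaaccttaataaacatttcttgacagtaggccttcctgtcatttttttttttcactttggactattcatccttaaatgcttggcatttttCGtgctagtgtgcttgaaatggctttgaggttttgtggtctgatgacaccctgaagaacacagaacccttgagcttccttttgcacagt
The Basp1 window is 78.8% G and C with 30 CG dinucleotides, and 1.72% of 32851 RefSeq windows of that length are as rich in G and C. The Gpr141 window is 34.8% G and C with 2 CG dinucleotides, and 5.00% of windows are as poor. Basp1 had UMIs in every library and Gpr141 none in 3 of them. With 2 genes this is a description of each and no relation between them was tested.

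Nupr1, the stress-induced regulator at chr7:126623249-126630861 on the minus strand, was the member closest to an on and off pattern. Its level was 32.8, 29.7 and 91.6 CPM with 50 IU/mL IL-2 on days 3, 5 and 10. It was 18.6, 17.3 and 22.5 CPM with 50 IU/mL IL-2v. In the other 15 libraries it was at most 2.61 CPM, and in 6 of them it had no UMI. With 5 IU/mL IL-2 it was 1.85 CPM on day 3, 0.150 on day 5 (3 UMIs) and 0.067 on day 10 (2 UMIs). Nupr1 was at 0 in naive cells and at 1.12 CPM after 3 days of activation without cytokine. The day 5 and day 3 levels with 50 IU/mL IL-2 did not differ beyond counting error (ratio 0.90, 0.78 to 1.04), and the rise to day 10 was 3.09-fold.

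A stretch of 30 bases before the Nupr1 start is shown because it holds both a STAT element, TTCNNNGAA, 128 to 120 bases before the start, and an element bound by ATF4, TGATGNAA, on the other strand at 110 to 103 bases (GRCm38.p6, chr7:126625571-126625600, minus strand, capitals marking both matches). By the GENCODE annotation the stretch lies inside the Nupr1 gene, which starts further upstream.
Nupr1: agTTCTGGGAAagggccagaTTGCATCAga
Motifs were searched by their letters on both strands of the 250 bases before each start. RefSeq windows matched 5 of the 6 members, with 6 windows since Emilin2 has 2, and Lrrc32 was not matched. The STAT element was found in 2 of the 6 windows (Nupr1 and the downstream Emilin2 window) and in 7.02% of all windows. The ATF4 element was found in 2 (Nupr1 and the upstream Emilin2 window) and in 3.45% of all. The AP-1 site TGANTCA (6.75% of all windows) and the heat shock element GAANNTTC (6.69%) were found in none. No motif searched was in the Gpr141, Ltb4r1 or Basp1 window. A match describes letters and not a bound site.

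The share of cells with at least 1 UMI of a gene was taken after each cell was thinned to 2000 UMIs, so that depth did not set it. Cells under 2000 UMIs were left out, 57 to 393 per library, with the most in the library of 50 IU/mL IL-2 on day 5 (393 of 3250). The libraries hold no separate cell type set as lacking these genes, so the share that free RNA gives within a library was not measured. Shares in the naive library, with a median of 3799 UMIs per cell, are given beside the others. In naive cells the shares were 2.12% for Basp1, 0.224% for Ltb4r1, 0.067% for Lrrc32 and 0 for the other genes. There 0 of 4471 cells allows up to 0.0671% of cells with a UMI, taking 3 counts as the limit, which is not a limit on cells expressing the gene. With 50 IU/mL IL-2 on day 10 the shares were 49.2% for Ltb4r1, 39.7% for Emilin2, 35.0% for Basp1, 17.9% for Gpr141, 14.5% for Lrrc32 and 14.3% for Nupr1. Without thinning they were 75.7%, 67.2%, 56.2%, 39.6%, 29.2% and 27.7%. Ltb4r1, Emilin2 and Basp1 were thus detected in most cells only without thinning, in the library of the greatest median depth. After thinning the highest share there was 49.2%.

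Basp1 reached its share early, with 23.9% of cells on day 3, 35.1% on day 5 and 35.0% on day 10. Ltb4r1 went from 5.56% to 18.5% to 49.2% and Emilin2 from 10.4% to 21.7% to 39.7%. Gpr141 went from 1.73% to 13.4% to 17.9%. In cells with 50 IU/mL IL-2v on day 10 the shares were 17.8% for Ltb4r1, 17.0% for Emilin2, 12.7% for Lrrc32, 12.4% for Gpr141, 7.86% for Basp1 and 3.70% for Nupr1. Lrrc32 was the member whose share differed least between the 2 cytokines. Cells with a UMI of Basp1 carried 2.90 UMIs each with 50 IU/mL IL-2 on day 10, unthinned, and cells with a UMI of Lrrc32 carried 1.38, the highest and lowest of the 6.

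**Figure D2:**
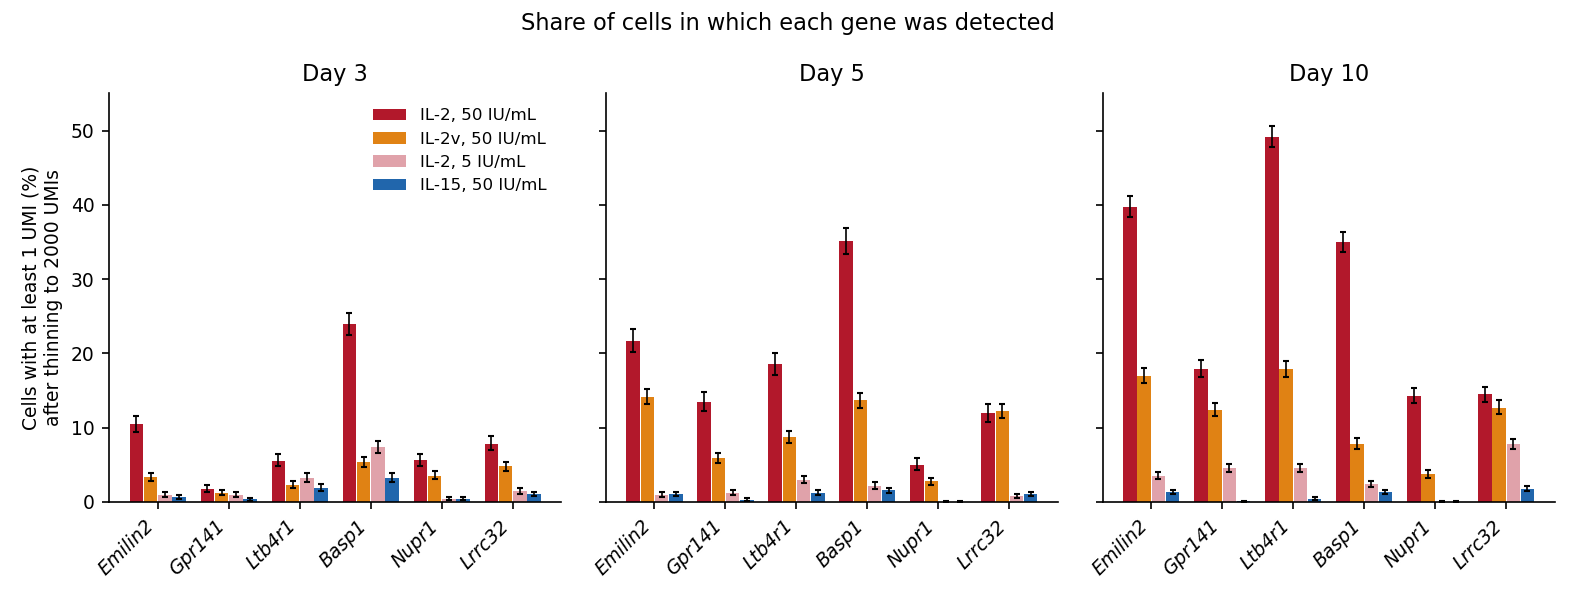
Share of cells (%) with at least 1 UMI of each gene after thinning to 2000 UMIs, on days 3, 5 and 10, for 50 IU/mL of each cytokine and 5 IU/mL of IL-2, with exact Clopper-Pearson 95% intervals. Basp1 is the tallest bar on day 3 (23.9%) and Ltb4r1 on day 10 (49.2%).

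Counting the 6 genes cell by cell, 85.2% of cells with 50 IU/mL IL-2 on day 10 had at least 1 of them after thinning, 54.3% had at least 2 and 23.3% at least 3. On days 3 and 5 the share with at least 1 was 43.5% and 66.2%. With 50 IU/mL IL-2v it was 18.3%, 43.5% and 51.5% on days 3, 5 and 10, and the share with at least 3 stayed at or below 3.62%. With 5 IU/mL IL-2 on day 10 the share with at least 1 was 20.3%. It was 2.42% in naive cells, 1.52% without cytokine on day 5 and 1.26% on day 10 of 5 IU/mL IL-15. After thinning, no cell in any library had all 6.

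**Figure D3:**
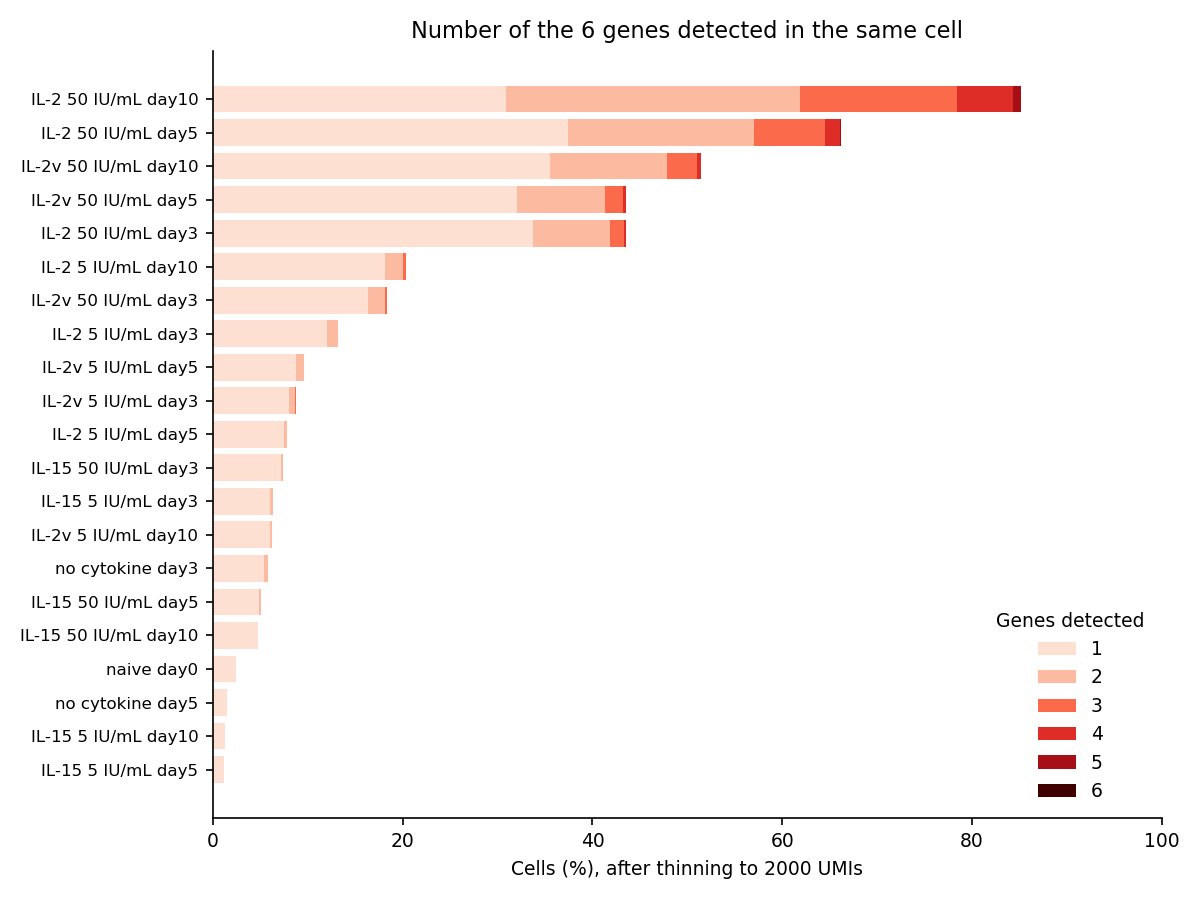
Share of cells (%) in each of the 21 libraries with UMIs of 1 to 6 of the genes after thinning to 2000 UMIs, stacked and ordered by the total. The 3 libraries of 50 IU/mL IL-2 and the later 2 of 50 IU/mL IL-2v lead, from 43.5% to 85.2% of cells, and naive cells had 2.42%.

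Cells with a UMI of one gene were also looked at for the others. On day 10 with 50 IU/mL IL-2, Emilin2 was in 44.9% (42.5 to 47.4) of 1642 cells with Basp1 and in 36.9% (35.2 to 38.6) of the rest. Gpr141 was in 23.4% (20.2 to 26.8) of 671 cells with Nupr1 and in 17.0% of the rest. For Lrrc32 and Ltb4r1 the shares lay close together, with Lrrc32 in 14.3% of cells with Ltb4r1 and 14.6% of the rest. These pairs were chosen after their values were seen. The same shares were not taken for pairs of other genes, and the part of doublets was not tested, so nothing particular to the 6 genes is read from them.

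The same cells were split by cycling, read as a UMI of Mki67 or Top2a, genes of dividing cells. With 50 IU/mL IL-2 on day 10 Ltb4r1 was in 37.4% (32.5 to 42.6) of cycling and 50.2% (48.7 to 51.7) of other cells, and Basp1 in 26.5% (22.1 to 31.3) and 35.7% (34.3 to 37.2). For the other 4 genes in that library the intervals of the shares overlapped, with Gpr141 in 17.9% of both. With 50 IU/mL IL-2v on day 10 Emilin2 was in 12.2% and 18.0%, and Lrrc32 in 9.5% and 13.4%. Basp1 with 50 IU/mL IL-2v on day 5 went the other way, in 15.2% of cycling and 11.4% of other cells. So did Basp1 with IL-15 on day 3, in 3.59% and 1.76% at 5 IU/mL and in 4.70% and 1.86% at 50 IU/mL. Cells were also split by a UMI of Il2ra, the alpha chain of the IL-2 receptor. With 50 IU/mL IL-2 on day 10, Basp1 was in 39.4% (37.2 to 41.7) of cells with Il2ra and 32.1% (30.4 to 33.9) without, and Gpr141 in 19.9% and 16.6%. For Nupr1 the shares were 15.0% and 13.8%, with intervals that overlapped. Neither split was made for all genes, so nothing particular to the 6 genes is read from it. Il2ra itself was at 869, 330 and 300 CPM with 50 IU/mL IL-2 and at 264, 78.3 and 106 CPM with 5 IU/mL.

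The dose comparison asks how the genes differ between 50 and 5 IU/mL of the same cytokine on the same day. For this, differences were taken on the log2(CPM + 1) scale, which compresses differences of low genes. Genes were tested if they reached 20 CPM on average in either arm, and called if they had the same sign in every pair and a median of at least 1 in size. With IL-2, 6 of 6 members were called higher at 50 IU/mL, beside 4.29% of all 5879 genes tested, and 0 were called lower, beside 2.7%. This contrast chose Nupr1 and Basp1, and nothing is read from the count. The median over the 6 genes was 3.19, and over all genes tested 0.03. The members differed in when the gap was widest. For Lrrc32 the ratio of 50 to 5 IU/mL was 8.45 on day 3, 17.5 on day 5 and 1.64 (1.53 to 1.75) on day 10. For Basp1 it was 3.77, 22.4 and 22.6, and for Ltb4r1 1.85, 6.18 and 12.5. Emilin2 was nearest to a constant ratio, with 12.5, 24.3 and 11.9. For Nupr1 it was 17.7 on day 3 and 1363 on day 10, the latter with an interval of 377 to 11263 because the reference held 2 UMIs.

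With IL-2v, 5 of the 5 members tested were called higher at 50 IU/mL, beside 2.38% of 5913 genes, with Nupr1 under the minimum level. The members passed that level through the 50 IU/mL libraries, which also helped to choose Lrrc32 and Emilin2, so nothing is read from the count. The genes' median was 2.56 and that of all genes tested 0.10. Gpr141 had ratios of 3.16, 11.2 and 77.3 on days 3, 5 and 10 and Ltb4r1 1.42, 4.71 and 27.5. Lrrc32 differed little between days, with 3.32, 4.07 and 3.68. Nupr1 was 7.15-fold higher on day 3 and at least 106-fold on day 5.

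With IL-15, 0.869% of the 5523 genes tested were called higher. Of the members, 0 reached the level to be tested, so none could be called. Their ratios were near 1 on day 3, with 1.36 (0.97 to 1.94) for Emilin2 and 1.27 (0.97 to 1.68) for Lrrc32. On day 5 Emilin2 was 11.3-fold and Lrrc32 17.5-fold higher at 50 IU/mL, from levels under 1 CPM at 5 IU/mL. Basp1 was 2.17-fold higher on day 5 and 1.08-fold (0.88 to 1.33) on day 10. Gpr141 was 8.25-fold (3.69 to 21.7) and Ltb4r1 5.23-fold (3.71 to 7.51) higher on day 5, and Ltb4r1 was 18.8-fold higher on day 10 against 3 UMIs (6.19 to 93.0).

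**Figure D4:**
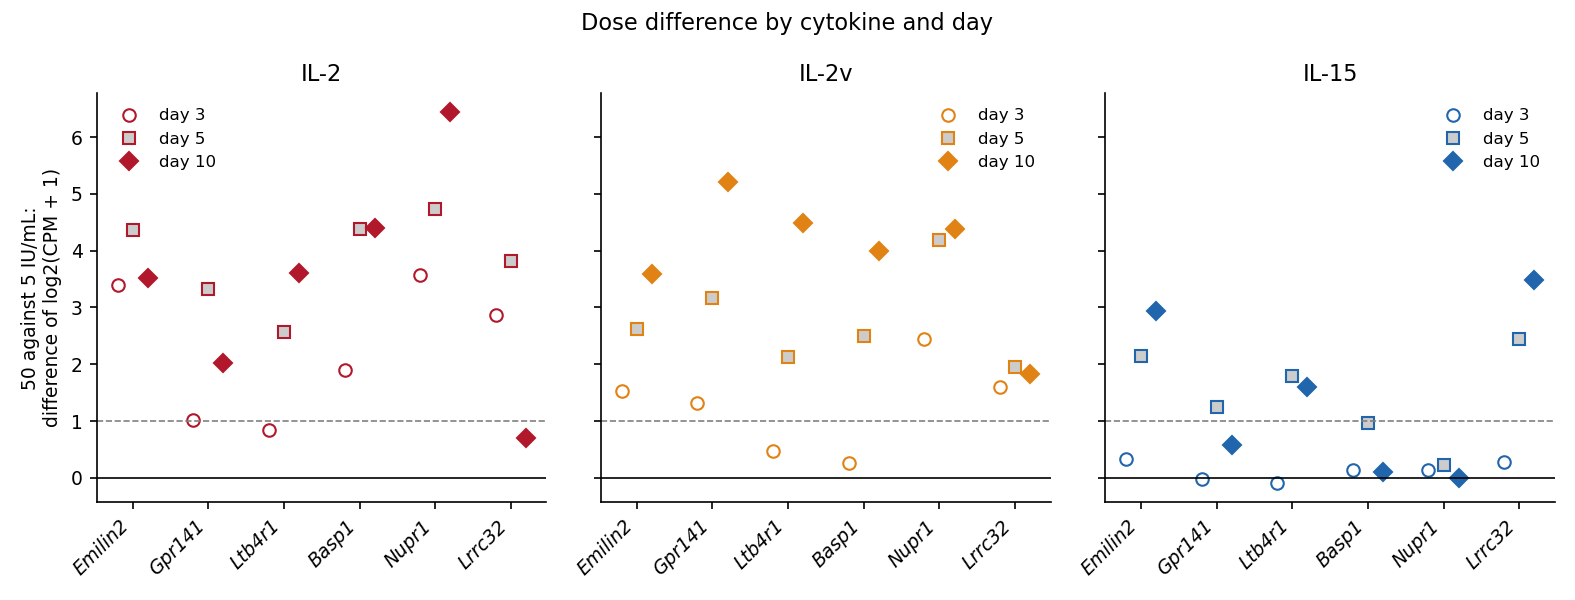
Difference of log2(CPM + 1) between 50 and 5 IU/mL for each gene on days 3, 5 and 10 (circle, square, diamond), with 1 panel per cytokine and a dashed line at 1. Lrrc32 with IL-2 drops under the line on day 10 (0.70), Gpr141 with IL-2v climbs to 5.21, and all IL-15 points of day 3 lie under the line.

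The comparison of IL-15 with IL-2 paired libraries of equal day and dose. In it 6 of 6 members were called lower with IL-15, beside 1.7% of 5718 genes, and 0 higher, beside 0.49%. This contrast chose Emilin2, Gpr141 and Ltb4r1, and its libraries took part in choosing the others. The members also reached the minimum level through the IL-2 libraries, so nothing is read from the count. For Nupr1 the pairs of 5 IU/mL on days 5 and 10 were near the floor, at 0.150 and 0.067 CPM with IL-2 and 0 with IL-15. The median over the 6 genes was -3.06 and over all genes -0.01. The pair at 5 IU/mL on day 3 was the closest for Emilin2, Gpr141, Ltb4r1 and Lrrc32. In that pair Nupr1 had a ratio of 0.88 (0.54 to 1.45) and Lrrc32 0.84 (0.63 to 1.12), which did not differ beyond counting error. Basp1 was closest at 5 IU/mL on day 10, where IL-2 was 1.96-fold higher. On day 10 at 50 IU/mL IL-2 was above IL-15 at least 973-fold for Nupr1, 220-fold for Gpr141 (135 to 385) and 155-fold for Ltb4r1 (124 to 197), but 7.19-fold for Lrrc32 (6.39 to 8.11). On day 10 at 5 IU/mL the ratio was at least 347 for Lrrc32, and 233 for Ltb4r1 with a wide interval (79.6 to 1134).

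Between IL-2v and IL-2 the members parted. Ltb4r1 alone was called lower with IL-2v, 1 of 6, beside 0.274% of 5839 genes, and 0 were called higher, beside 1.04%. The IL-2 libraries also took part in choosing 5 of the genes and the IL-2v libraries in choosing Emilin2 and Lrrc32, so nothing is read from the counts. The Ltb4r1 median difference was -1.21 (-2.60 to -0.71 over the 6 pairs). That call was at the limit, since with a pseudocount of 10 CPM the median for Ltb4r1 was -0.95 and no member was called. Without day 5, Basp1 was called as well. Basp1 had the lowest median, -1.87, but stood at 0.21 with 5 IU/mL on day 5. Gpr141 was below 0 in all 6 pairs with a median of -0.78, and Lrrc32 had a median of -0.07 with a range of -1.21 to 1.80. At 50 IU/mL on day 10 IL-2 exceeded IL-2v 5.63-fold for Basp1, 4.06-fold for Nupr1, 3.31-fold for Ltb4r1, 2.85-fold for Emilin2 and 1.61-fold for Gpr141. At 5 IU/mL on day 5 the order was the other way for Lrrc32, 4.14-fold higher with IL-2v (3.21 to 5.39), and Emilin2, 2.30-fold (1.82 to 2.92).

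IL-2v was set against IL-15 in the same way. Here 3 of 5 members tested were called higher with IL-2v (Emilin2, Gpr141 and Lrrc32), beside 2.48% of 5810 genes. This contrast chose Emilin2 and Lrrc32, and the IL-15 libraries took part in choosing Gpr141 and Ltb4r1, so nothing is read from the count. Ltb4r1 had a median of 2.23 but was lower in the pair of 5 IU/mL on day 3 (-0.31). Basp1 had a median of 1.20 and was lower in the pair of 5 IU/mL on day 10 (-1.19). Nupr1 was under the minimum level, although at 50 IU/mL IL-2v was 101-fold above IL-15 on day 5 (39.1 to 372).

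The cultures without cytokine give the background that activation alone leaves. The libraries of 50 IU/mL IL-2 took part in choosing the genes, and the members passed the minimum level through that arm, so nothing is read from the counts against the share of all genes. On day 3, 5 of 5 members tested were at least 2-fold higher with 50 IU/mL IL-2 than without cytokine, beside 6.45% of 6030 genes. Gpr141, under the minimum level, was 10.2-fold higher. Emilin2 was 32.1-fold, Nupr1 29.2-fold, Basp1 and Lrrc32 each 11.3-fold and Ltb4r1 3.56-fold higher. On day 5 all 6 were at least 2-fold higher, beside 16.5% of 6022 genes, with Ltb4r1 57.3-fold and Basp1 40.6-fold. Lrrc32 was 346-fold higher against 5 UMIs, and for Emilin2, Gpr141 and Nupr1, with no UMI in the reference, the ratio was at least 1108, 686 and 254. Without cytokine on day 3 against naive cells, 11.1% of the 6171 genes tested were called higher. Of the members, 0 reached the minimum level, so none could be called. Below that level, Ltb4r1 was 9.18-fold (5.66 to 15.8) and Lrrc32 6.16-fold (3.36 to 12.4) above naive cells, while Basp1 was 1.16-fold (0.99 to 1.38).

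Over time with 50 IU/mL IL-2, 4 of 6 members were at least 2-fold higher on day 10 than on day 3, beside 5.33% of 6077 genes. The day 10 library took part in choosing the genes, and nothing is read from the count. The 4 were Ltb4r1 (log2 difference 3.52), Gpr141 (3.33), Emilin2 (2.19) and Nupr1 (1.45). Basp1 (0.77) and Lrrc32 (0.68) were under the limit. The median over all genes was -0.39 in this comparison, and scaling by trimmed means (TMM) moved it to 0.09. On that scale Basp1 (1.20) and Lrrc32 (1.11) passed as well, so their calls turn on the scaling. The other 4 passed on both scales.

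Each gene was then set beside genes of its pathway, from lists drawn up with earlier results of these data known. For Nupr1 the list was the integrated stress response, in which ATF4 raises genes of amino acid supply and stress control. With 50 against 5 IU/mL IL-2, 10 of the 12 genes tested were called higher, beside 4.29% of all genes, and 0 lower, beside 2.7%. The list median was 1.87 and that of all genes 0.03. The count includes Nupr1, which this contrast chose. Besides Nupr1 they were Asns (3.72), which makes asparagine, the transcription factors Atf5 (2.72), Ddit3 (2.66), Atf4 (1.98) and Cebpb (1.16), the kinase-like regulator Trib3 (2.23), the growth restraints Sesn2 (1.76) and Ddit4 (1.34), and the phosphatase subunit Ppp1r15a (1.15). Ddit3 was at 120, 178 and 220 CPM with 50 IU/mL IL-2 and at 41.4, 27.2 and 31.9 CPM with 5 IU/mL. With IL-2v 7 of 10 were called higher at the higher dose, beside 2.38% of all genes, with a median of 1.74. With IL-15 0 of 5 were, beside 0.869%. The difference of Nupr1 itself in the IL-2 contrast was 4.74.

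In the heat shock list 2 of 6 genes tested were called higher at 50 IU/mL IL-2, beside the 4.29% of all genes. They were Hspa1a and Hspa1b, chaperones induced by heat and misfolded protein, with 65.8 and 52.6 CPM on day 3 and 128 and 105 CPM on day 5. In all other libraries, day 10 of 50 IU/mL IL-2 included, they were at most 1.28 and 1.46 CPM, while Nupr1 was at its highest on that day. On day 5, 13.7% of cells with 50 IU/mL IL-2 had a UMI of either. In the other cells of that library the members were at 274 CPM (Basp1), 128 (Emilin2), 114 (Ltb4r1), 77.9 (Gpr141), 68.1 (Lrrc32) and 30.8 (Nupr1), against 284, 129, 112, 80.2, 67.3 and 29.7 in all cells. On day 3, 8.30% of cells had such a UMI, and Emilin2 was at 60.5 CPM without them and 60.6 CPM with them. Ltb4r1 on day 3 was at 23.4 CPM in the cells with such a UMI and 32.7 CPM in the others. The day 3 intervals overlapped between those cells for every member. In the 445 cells with such a UMI on day 5, Basp1 was higher, at 353 CPM (323 to 386) against 274 (263 to 285) in the others, while the intervals of the other 5 members overlapped between those cells.

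**Figure D5:**
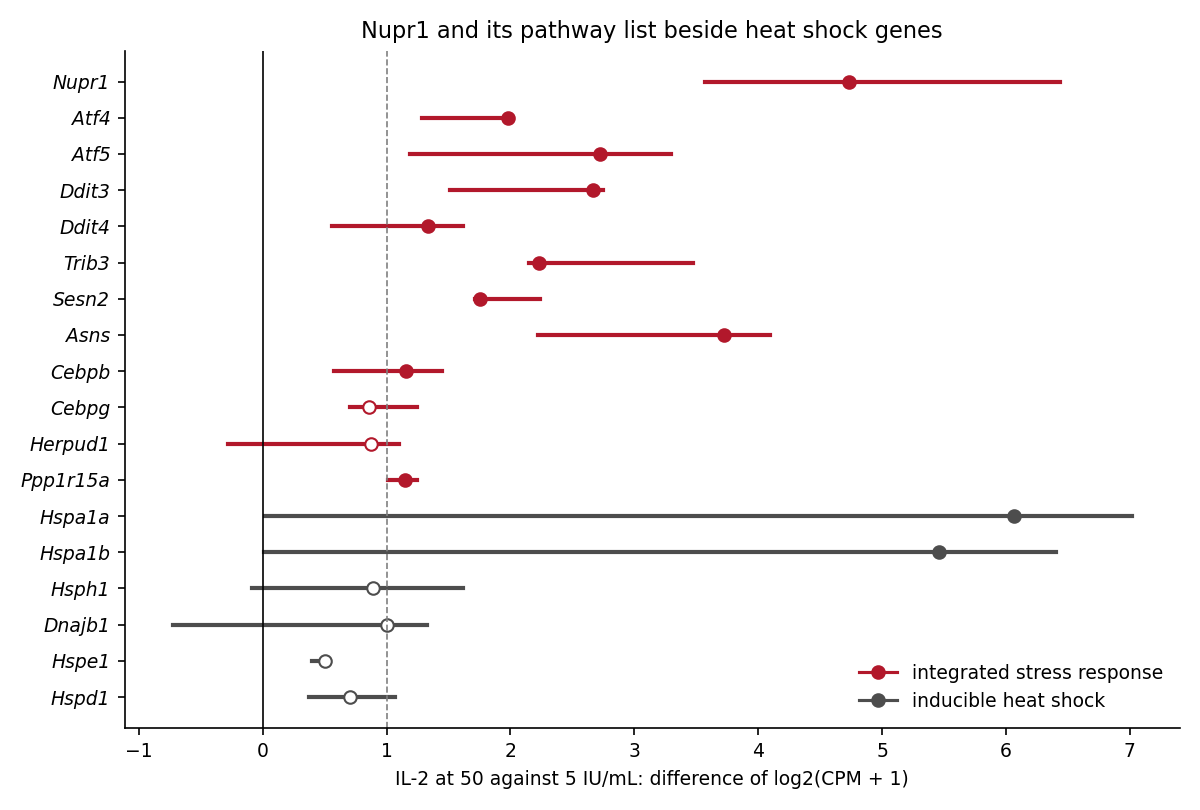
Difference of log2(CPM + 1) between 50 and 5 IU/mL IL-2 for tested genes of the integrated stress response and heat shock lists, with the median of days 3, 5 and 10 as a point and lowest to highest as a line, filled where called, and a dashed line at 1. Nupr1 runs from 3.57 to 6.44 while Hspa1a runs from 0.02 to 7.02, its lowest value being that of day 10.

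In each of the other lists that hold a member, 1 or 2 genes were called higher with 50 against 5 IU/mL IL-2, the member itself among them. These counts stand beside the same 4.29% of all genes called higher and 2.7% lower, and Basp1 was chosen by this contrast. In the GARP and TGF-beta list 2 of 11 genes tested were called higher at 50 IU/mL IL-2, Lrrc32 and the integrin chain Itgav (1.48), while Tgfb1, the ligand that GARP holds, had a median of 0.75. Tgfb1 was at 255, 131 and 289 CPM with 50 IU/mL IL-2 and 152, 83.3 and 129 CPM with 5 IU/mL. Among lipid and orphan receptors of lymphocytes 2 of 12 were called higher, Gpr141 and the UDP-sugar receptor P2ry14 (1.31), and 1 lower, S1pr1 (-2.14), which guides T cells out of lymph nodes. With IL-2v the same 3 genes were called in the same directions. Of the leukotriene list 1 of 2 was called, Ltb4r1, beside the leukotriene B4-making enzyme Lta4h (0.44). Alox5, which starts leukotriene synthesis, was at most 0.367 CPM. Marcks, of the group of Basp1, had a median of -0.38 with dose. Emilin2 was the one tested gene of its family, and Emilin1 stayed at or below 6.17 CPM everywhere. Of the IL-2 receptor list 1 of 12 was called higher, Il2ra (1.71).

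For each member the 3 genes most like it over the 21 libraries were found by Pearson's r of log2(CPM + 1), among 7271 genes that reached 20 CPM in a library. The libraries share cultures' days and doses, so r is a description. Emilin2 was nearest to Ppp1r3b (0.964), Lrrc32 (0.962) and Trim16 (0.951). Lrrc32 was nearest to Emilin2, Cd93 (0.958) and Metrnl (0.955). Gpr141 was nearest to Adam8 (0.974), Ltb4r1 (0.961) and Lat2 (0.959), and Ltb4r1 to Swap70 (0.967), Sult2b1 (0.966) and Gpr141. Basp1 was nearest to Bcr (0.941), Cmip (0.940) and Ddit3 (0.939). Nupr1 was nearest to Ddit3 (0.959), Atf5 (0.957) and Slc3a2 (0.948), of which Ddit3 and Atf5 are in its list. The libraries that chose the genes enter every r, so likeness between members is in part fixed by the choice. Between members r ran from 0.693 (Basp1 and Lrrc32) to 0.962 with a median of 0.842.

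Some markers of other cells, myeloid genes and Zbtb7b among them, were highest in the library in which the members peaked, and others were not. Summed dendritic, B, regulatory T and NK cell markers reached 302, 17.9, 196 and 36.7 CPM in libraries other than 50 IU/mL IL-2. With 50 IU/mL IL-2 they reached at most 162, 7.65, 121 and 21.3 CPM. Shares of cells in this paragraph are without thinning, and the day 10 library of 50 IU/mL IL-2 had the greatest median depth. Over 9 of the 11 myeloid markers, summed levels were 110 to 237 CPM in the libraries of 50 IU/mL IL-2 and 67.0 to 156 CPM in the others. Fcer1g, a signalling chain of Fc receptors, Cd68, a lysosomal protein of macrophages, and Cst3, a protease inhibitor, were each detected in the largest share of cells with 50 IU/mL IL-2 on day 10, 17.7%, 7.39% and 41.3%. Cst3 was detected in at least 20.7% of cells in every library, and its CPM was not higher at 50 than at 5 IU/mL IL-2 on any day (log2 differences of -0.23 to -0.06). Lyz2 and Csf1r, which define myeloid cells, were detected in at most 0.126% of cells in any library. Zbtb7b was also found in the largest share of cells with 50 IU/mL IL-2 on day 10, 13.5%, and was called higher at 50 than at 5 IU/mL IL-2 (1.14), while Cd8b1 was called lower (-1.29). The part of these markers in the member levels was not tested. Klrb1c, an NK cell gene, was detected in at most 13.0% of cells, in the library of 50 IU/mL IL-2v on day 10. Without the 638 cells with markers of other lineages, the members in the day 10 library of 50 IU/mL IL-2 were at 372 CPM (Ltb4r1), 278 (Basp1), 273 (Emilin2), 108 (Gpr141), 87.2 (Nupr1) and 74.9 (Lrrc32), against 375, 295, 279, 110, 91.6 and 73.1 CPM with them. The order of the 6 levels was the same with and without those cells. Within the 638 cells Basp1 was at 377 CPM (359 to 395), against 278 (271 to 285) in the others. Emilin2 was at 311 CPM (296 to 328) against 273 (266 to 280), and Nupr1 at 112 (103 to 122) against 87.2 (83.4 to 91.1). For Ltb4r1, Gpr141 and Lrrc32 the intervals overlapped between these sets of cells, with Lrrc32 lower in the 638 cells (64.3 CPM).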

How the data were processed

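Single-cell RNA was measured in 21 libraries of OT1 CD8 T cells. The deposited tables hold the authors' raw UMI counts per gene symbol and cell. The submitters' processing notes name the build mm10, Cell Ranger and Seurat 4.0.1 and 3.0.2, with no role; further steps are not given in the sources used here. Groups follow the titles and the design. The members, gene lists, motifs and comparisons were chosen with earlier results of these data known. Genes named are the members, genes of the fixed lists that reach 20 CPM in a library and, for each member, the 3 genes with the highest Pearson r. The genes Tnfrsf9, Scd1 and Hist1h2ap (next in rank), list genes under 20 CPM and markers were named outside that rule.

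Filters of at least 1000 UMIs, at least 500 genes and no more than 10% mitochondrial UMIs per cell removed 2 cells. UMIs were summed per library and scaled to CPM, so precision follows the total counts of 10589950 to 32648496. The pseudocount was 1 CPM and a called gene had a median log2 difference of at least 1. Levels have exact Poisson, shares exact Clopper-Pearson and ratios exact conditional 95% intervals. Against 0 UMIs a floor of 3 UMIs per library gave a lower bound. No doublet caller was run; cells with over 2 times the median UMIs were left out in an alternative. Calling was tested on simulated data. Python 3.11.15, numpy 2.4.6, scipy 1.17.1, R 4.3.3 and edgeR 4.0.16 (TMM factors only) were used. Gene positions are from GENCODE for GRCm38, the build mm10, and window sequences from RefSeq (GRCm38.p6).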

Additional observations from a re-analysis of the deposited data

Results flagged for a closer look

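Between sampling days, some members were higher at the later day with a cytokine and lower with another at the same dose, each by more than counting error. With 1 library per condition the difference between the cytokines was not tested. The cases below were picked by this rule from a search over the members, doses, steps between days and pairs of cytokines. Combinations that did not go apart are not listed. No share of all genes that go apart in this way is given, so nothing particular to the members is read from the cases or their number. Values are the log2 ratio of the later to the earlier day with the first cytokine minus that with the second.

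At 5 IU/mL from day 5 to day 10, IL-2 and IL-2v went apart for 3 members. Emilin2 was 4.41-fold higher (3.59 to 5.46) with IL-2 and 1.70-fold lower (1.41 to 2.05) with IL-2v, a gap of 2.91. Gpr141 was 3.72-fold higher (3.11 to 4.48) and 3.91-fold lower (2.48 to 6.29), a gap of 3.86. Ltb4r1 was 1.66-fold higher (1.47 to 1.88) and 2.57-fold lower (2.06 to 3.23), a gap of 2.10, and against IL-15 the gap for Ltb4r1 was 4.18. Basp1 was 1.54-fold higher with IL-15 (1.21 to 1.96) and 6.28-fold lower with IL-2v (4.86 to 8.20), a gap of 3.27.

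At 5 IU/mL from day 3 to day 5, Lrrc32 was 2.20-fold higher with IL-2v (1.80 to 2.69) while it was 1.39-fold lower with IL-2 (1.02 to 1.90), a gap of 1.61, and 12.2-fold lower with IL-15, a gap of 4.74. Emilin2 went apart between IL-2v and IL-15 by 3.75. Gpr141 went apart from IL-15 by 3.90 for IL-2 and by 3.80 for IL-2v, where the later IL-15 library held 7 UMIs of Gpr141.

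At 50 IU/mL IL-15 went apart from both other cytokines for Ltb4r1 in both steps, for Basp1 in the earlier and for Gpr141 in the later. Emilin2 was higher on day 5 than on day 3 with all 3 cytokines. From day 3 to day 5 the gap for Ltb4r1 was 2.31 from IL-2 and 2.49 from IL-2v, and for Basp1 it was 1.70 and 2.38. From day 5 to day 10 it was 3.35 and 2.78 for Ltb4r1, and 2.41 and 2.76 for Gpr141.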

How the results depend on the processing

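Of 128 recomputed counts of called members, 124 stayed within 1.5 times the count given. The other 4 moved. With a pseudocount of 10 CPM, 0 members were called lower with IL-2v than with IL-2, and without day 5 there were 2, against 1. With no filter on low values, 2 members were called higher at 50 than at 5 IU/mL IL-15, against 0. Under that setting 4 members were at least 2-fold higher without cytokine on day 3 than in naive cells, also against 0. These members were under the minimum level and no share of all genes without the filter is given, so nothing is read from either count. Of the members' log2 differences 717 kept their value within the stated spread, 51 moved and 0 changed sign. Shares of cells moved in 196 of 252 cases, since thinning to 1000 UMIs or not at all changes detection. TMM scaling moved the median of all genes in 50 IU/mL IL-2 against no cytokine from 0.19 to 0.03 on day 3 and from 0.11 to -0.06 on day 5. The alternative without cells holding Hspa1a or Hspa1b UMIs was chosen after seeing the data and left every count of called members as it was. No paired analysis by replicate was possible because each condition had 1 library and the labels number no replicates. Libraries were paired only by equal day and dose. Depth limits ratios against libraries with few UMIs, such as Nupr1 with 5 IU/mL IL-2 on days 5 and 10 (3 and 2 UMIs).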
